A study of Homo sapiens with 4 samples.

Results

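The exons described here are the cassette exons of the RAB genes, which encode small GTPases of membrane traffic together with a few of their partners. Of 75 protein-coding genes in GENCODE release 29 whose symbol starts with RAB and a digit, 48 had at least 1 skipped-exon event in the summaries of both groups and 27 had none. A skipped exon had to match an exon of such a gene on the same strand, and 115 of 45977 events did so. Where several events skip the same exon, the best-covered event stands for it, which left 109 RAB exons among 39120 exons. Of these, 91 lie in GTPase genes and 18 in genes that carry a RAB symbol without encoding the GTPase alone, such as the RAB11 effectors RAB11FIP1 and RAB11FIP5, or in the readthrough of RAB4B into EGLN2.

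The cells were MDA-LM2, a human breast cancer line derived from MDA-MB-231 by selection for lung metastasis. One group was transfected by lipofection with the SSE mimetic RNA and the other with a scrambled oligo, with 2 samples in each group and 4 in all. They are called mimetic cells and control cells below. The study asked what the mimetic does to the transcriptome relative to the scrambled control. The deposited tables hold 1 pooled read set per group, so there is no spread between samples, no value per sample and no test across samples. Whether the samples of a group were separate cultures is not stated in the labels. All comparisons below are between those 2 read sets.

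The read sets differed in depth and in kind. Over all events, some of which share reads, reads that tell the isoforms apart numbered 431105 in mimetic cells and 2039336 in control cells, or 21.1 per 100, whereas reads that matched neither isoform stood at 65.1 per 100. RAB events had 1210 and 5322 isoform-specific reads, or 22.7 per 100. As a check of the cell line, CD44, a surface glycoprotein of mesenchymal-like breast lines, had an exon with 164 inclusion reads in mimetic cells and 995 in control cells. The other mesenchymal-like markers were low, with at most 6 and 47 inclusion reads for AXL, 9 and 10 for SPARC, 2 and 20 for S100A4 and 2 and 2 for LGALS1, and VIM had no event. Of the luminal markers, KRT8 had 88 and 340, CDH1 5 and 8 and ESR1 4 and 2, and EPCAM, KRT18 and ERBB3 had no event. The blood list summed to 10 and 14 and the liver list to 8 and 17. Apart from CD44, these reads do not set the mesenchymal-like list above the luminal one. In bulk RNA, fewer cells that use an exon and less use of it per cell cannot be told apart.

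RAB proteins are molecular switches that cycle between a GTP-bound form on membranes and a GDP-bound form. Exchange factors load GTP, GTPase-activating proteins speed its hydrolysis, and effectors such as tethers, motors and adaptors bind the active form. The fold is built from a P-loop that holds the phosphates, the switch I and switch II regions that move with the nucleotide, and a guanine-binding motif, and a prenylated C-terminus anchors the protein. Each RAB marks its own compartment, from RAB1 between the endoplasmic reticulum and the Golgi to RAB5 on early and RAB7 on late endosomes.

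The sequences that follow are the exons on which the results turn, read 5′ to 3′ on the strand of the gene from GENCODE release 29 transcripts (GRCh38). The first set shows tested exons that encode the switch II stretch, with those bases in capitals. They lie at chr2:26109768-26109906 (RAB10, + strand), chr10:27532507-27532579 (RAB18, + strand), chr12:55989947-55990098 (RAB5B, + strand) and chr3:128806372-128806449 (RAB7A, + strand).
RAB10 139 nt: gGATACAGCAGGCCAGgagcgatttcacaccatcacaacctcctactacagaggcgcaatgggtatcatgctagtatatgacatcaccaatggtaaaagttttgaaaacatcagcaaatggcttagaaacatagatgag
RAB18 73 nt: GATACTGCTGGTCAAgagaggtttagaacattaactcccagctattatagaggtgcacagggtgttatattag
RAB5B 152 nt: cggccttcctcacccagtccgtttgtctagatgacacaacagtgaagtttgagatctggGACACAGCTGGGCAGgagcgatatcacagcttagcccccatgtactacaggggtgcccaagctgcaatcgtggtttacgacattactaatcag
RAB7A 78 nt: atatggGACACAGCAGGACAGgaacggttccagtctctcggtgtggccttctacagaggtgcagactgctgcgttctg

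The second set shows the paralogs RAB1A (chr2:65090983-65091078, − strand) and RAB1B (chr11:66272365-66272460, + strand), whose exons for this stretch have the same length. Capitals mark the 19 positions at which they differ, and 77 of 96 bases were the same (80.2% identity).
RAB1A 96 nt: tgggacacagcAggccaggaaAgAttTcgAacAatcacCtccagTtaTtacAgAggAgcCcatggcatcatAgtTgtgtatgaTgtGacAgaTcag
RAB1B 96 nt: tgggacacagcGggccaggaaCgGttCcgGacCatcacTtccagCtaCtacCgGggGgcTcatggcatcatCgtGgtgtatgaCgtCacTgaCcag

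The third set is the pair of equal-length RAB6A exons, known as mutually exclusive, at chr11:73718785-73718890 and chr11:73718613-73718718 (− strand). Capitals mark the 31 differing bases, and 75 of 106 bases were the same (70.8% identity).
RAB6A 106 nt, the first exon: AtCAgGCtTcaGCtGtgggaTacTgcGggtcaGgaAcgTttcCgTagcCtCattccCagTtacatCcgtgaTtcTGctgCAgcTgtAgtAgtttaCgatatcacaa
RAB6A 106 nt, the second exon: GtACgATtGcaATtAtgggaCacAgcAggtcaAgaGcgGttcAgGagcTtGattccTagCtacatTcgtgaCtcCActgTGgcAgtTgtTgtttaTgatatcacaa

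The last set holds coding exons that lack the switch II stretch. The 129-nt exon of RAB7A (chr3:128807543-128807671, + strand) had the highest difference in inclusion among tested RAB exons. An 87-nt exon of RAB18 (chr10:27531529-27531615, + strand) had too few reads to be tested but passed both other criteria given below.
RAB7A 129 nt: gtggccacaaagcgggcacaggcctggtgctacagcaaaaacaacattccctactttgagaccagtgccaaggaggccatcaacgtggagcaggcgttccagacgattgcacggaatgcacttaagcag
RAB18 87 nt: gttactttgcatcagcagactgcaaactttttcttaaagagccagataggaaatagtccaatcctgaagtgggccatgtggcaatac

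The tested RAB exons were mostly kept in both read sets, and none met the criteria for a difference. Inclusion is the authors' Ψ, the estimated fraction of transcripts that keep the exon, given with its 95% credible interval. Testing required at least 10 isoform-specific reads (inclusion reads plus skipping reads) per group. A call required a deposited Bayes factor, which weighs a difference against no difference, of at least 10, together with a change in Ψ of 0.1 or more. Of the 109 RAB exons 29 were tested, in 19 genes, and 0 of 29 were called, where 3.99% of all 8228 tested exons were called (3.1% with higher and 0.887% with lower Ψ in mimetic cells). A count of 0 in 29 allows a share of up to 10.3%, so the share among RAB exons was not distinguishable from that of all exons at this number. The credible intervals of the 2 read sets were apart for 0 of 29 RAB exons, against 5.87% of all tested exons, with intervals that only touch counted as not apart. A two-sided Fisher's exact test on inclusion and skipping reads gave 0 RAB exons with a Benjamini-Hochberg adjusted p below 0.05 and 0 with an unadjusted p below 0.05, where the shares over all tested exons were 1.01% and 5.51%. The smallest RAB p was 0.146, in that exact test, for the 69-nt exon of RAB34. For the 16 tested RAB exons with no skipping read in either group the test could not give a low p. Such exons made up 54.8% of all tested exons.

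**Figure D1:**
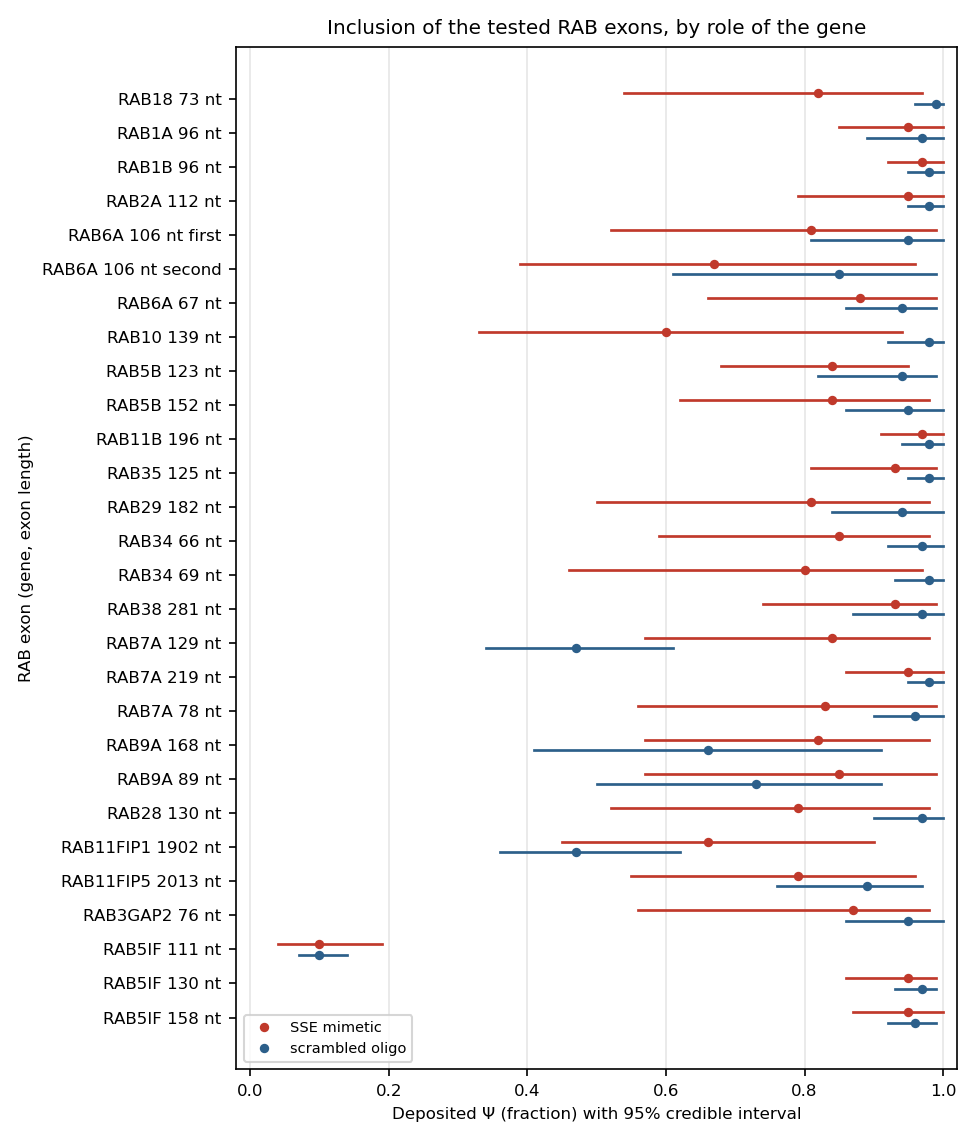
Deposited Ψ (horizontal axis, fraction) of 28 of the 29 tested RAB exons, ordered by the role of the gene, for mimetic cells (red) and control cells (blue). Points are the authors' Ψ and lines the 95% credible intervals, whose median width over the 29 exons was 0.41 in mimetic cells and 0.10 in control cells. RAB7A 129 nt shows the widest gap between the points with the red one on the right.

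The median Ψ of the tested RAB exons was 0.84 in mimetic cells and 0.96 in control cells. Ψ was at least 0.9 for 9 of 29 RAB exons in mimetic cells and 22 of 29 in control cells, against 23.9% and 48.2% of all tested exons. The median difference, SSE mimetic minus scrambled, was −0.06 (interquartile range −0.13 to −0.01), beside −0.03 (−0.09 to 0.03) over all tested exons. Ψ was lower in mimetic cells for 24 RAB exons, higher for 4 and equal for 1, so 82.8% lay below 0, as did 63.2% of all tested exons. Read number moved with this shift. The median number of isoform-specific reads per tested RAB exon was 22 in mimetic cells and 104 in control cells, and 16 of 29 exons had no skipping read in either group, for which Ψ depends on the number of inclusion and shared reads. When the control reads were scaled to the depth of mimetic cells in a 2-isoform likelihood model, 16 RAB exons lay below 0 and 13 above, and the median RAB difference was −0.0067, beside 0.0196 over all tested exons. The share of isoform-specific reads supporting inclusion had a median difference of 0.00, a value fixed by the 16 exons with no skipping read. The part of read number in the shift was not tested.

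**Figure D2:**
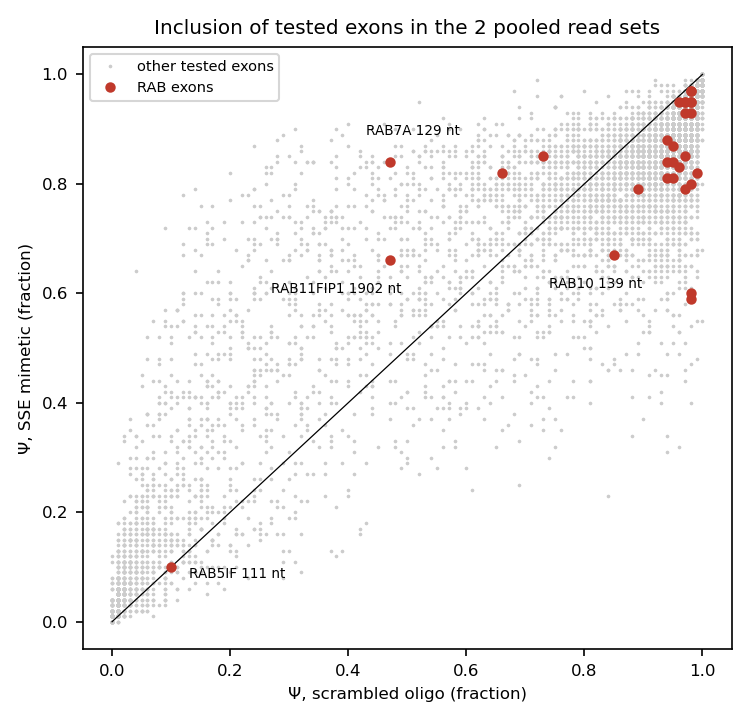
Deposited Ψ in mimetic cells (vertical axis, fraction) against Ψ in control cells (horizontal axis, fraction) for the 29 tested RAB exons (red) and all other tested exons (grey), with the line of equality. Most RAB exons sit at the upper right and 24 lie below the line, while RAB7A 129 nt (0.84 and 0.47) lies farthest above it.

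Few reads showed skipping of the tested RAB exons. Inclusion reads can come from the exon body and both its junctions, skipping reads only from the junction that leaves the exon out. The share of inclusion reads, here and below, is therefore not the fraction of transcripts that keep the exon. RAB11FIP1 had 103 inclusion reads and 1 skipping read in control cells, at a Ψ of 0.47. Summed over the 29 exons, inclusion reads numbered 853 in mimetic cells and 3646 in control cells, and skipping reads 20 and 105. Most skipping reads came from 1 exon, the 111-nt exon of RAB5IF. Without it, 848 of 854 isoform-specific reads supported inclusion in mimetic cells (99.3%, exact 95% binomial interval 98.5 to 99.7%) and 3619 of 3637 in control cells (99.5%, 99.2 to 99.7%). These intervals cover counting error only, and some exons overlap and share reads. For 28 of 29 exons inclusion reads outnumbered skipping reads in both groups.

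RABs of the early secretory pathway gave 8 tested exons in 5 genes, all with a lower Ψ in mimetic cells and none called (median difference −0.10, range −0.39 to −0.01). With scaled control reads 5 lay below 0 and 3 above. RAB1A and RAB1B direct transport from the endoplasmic reticulum to the Golgi. The 96-nt RAB1A exon that encodes the switch II stretch had 44 inclusion reads and a Ψ of 0.95 in mimetic cells, and 103 and 0.97 in control cells. The matching RAB1B exon had 77 inclusion reads and a Ψ of 0.97 in mimetic cells, and 226 and 0.98 in control cells. The paralogs are 80.2% identical there, with the 19 differing bases spread along most of the exon. Whether the aligner split any reads between them was not tested.

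RAB18, which acts at the endoplasmic reticulum and lipid droplets, had a tested 73-nt exon with a Ψ of 0.82 (0.54 to 0.97) in mimetic cells and 0.99 (0.96 to 1.00) in control cells. It had 14 inclusion reads in mimetic cells and 197 in control cells, and 0 skipping reads in both. The upstream intron of this event contains a 62-nt RAB18 exon. Reads joining that exon to the 73-nt exon match neither isoform, as in any event with an exon inside a flanking intron. The 112-nt exon of RAB2A, a RAB of the Golgi, had a Ψ of 0.95 in mimetic cells and 0.98 in control cells, on 26 and 166 inclusion reads. None of these intervals separated the groups.

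RAB6A, which controls retrograde traffic at the Golgi, offers the one choice between alternative switch II exons among the tested RABs. No GENCODE transcript holds both of its 106-nt exons. Ψ of the first was 0.81 (0.52 to 0.99) in mimetic cells and 0.95 (0.81 to 1.00) in control cells, and Ψ of the second was 0.67 (0.39 to 0.96) and 0.85 (0.61 to 0.99). Each event compares its exon with skipping and not with the other exon, so both values can be high. Set against each other by their inclusion reads, the first exon took 21 of 33 reads in mimetic cells (63.6%, exact interval 45.1 to 79.6%) and 101 of 155 in control cells (65.2%, 57.1 to 72.6%). The shares did not differ beyond counting error (two-sided Fisher's exact p = 0.844). RAB6A also had a 67-nt exon with a Ψ of 0.88 in mimetic cells and 0.94 in control cells.

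RAB10, which delivers vesicles to the plasma membrane, was the only tested RAB of exocytosis. Its 139-nt exon had a Ψ of 0.60 (0.33 to 0.94) in mimetic cells and 0.98 (0.92 to 1.00) in control cells, with a Bayes factor of 3.28. It had 19 inclusion, 0 skipping and 18 shared reads in mimetic cells, against 390, 0 and 153 in control cells. Inclusion reads stood at 4.87 per 100 control reads (exact interval 2.90 to 7.71), the lowest of the tested RAB exons, where all tested exons together stood at 21.5. Shared reads of the same event stood at 11.8 per 100, so both classes were sparse in mimetic cells.

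**Figure D3:**
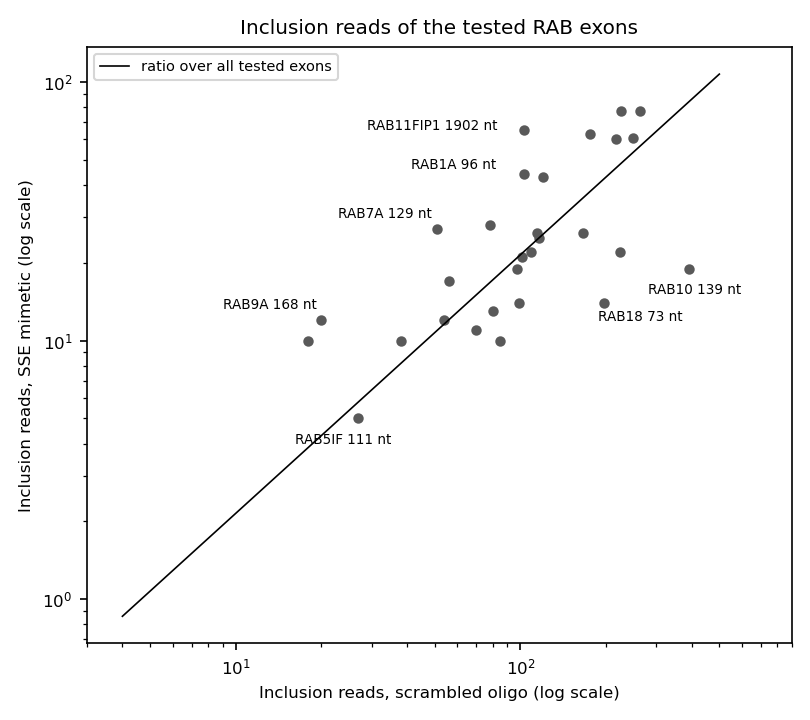
Inclusion reads in mimetic cells (vertical axis, log scale) against inclusion reads in control cells (horizontal axis, log scale) for the tested RAB exons, with a line at the ratio over all tested exons (21.5 per 100). RAB10 139 nt and RAB18 73 nt lie below the line, and RAB11FIP1 1902 nt, RAB7A 129 nt and RAB9A 168 nt above it.

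RABs of early and recycling endosomes were represented by 4 exons in 3 genes, with Ψ lower in mimetic cells by 0.01 to 0.11 and none called. With scaled control reads the RAB11B exon turned to above 0. RAB5B, a RAB of early endosome fusion, had a 152-nt switch II exon at 0.84 in mimetic cells and 0.95 in control cells, and a 123-nt exon at 0.84 and 0.94. RAB11B, of the recycling endosome, had a 196-nt exon with the P-loop and switch II stretches at 0.97 in mimetic cells and 0.98 in control cells, on 63 and 175 inclusion reads. RAB35, of rapid recycling, had a 125-nt exon at 0.93 and 0.98.

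RABs of late endosomes, lysosomes and related organelles gave 9 tested exons in 5 genes, of which 3 had a higher and 6 a lower Ψ in mimetic cells. With scaled control reads 6 lay above 0 and 3 below. The largest difference above 0 among all tested RAB exons lay here. RAB7A, which drives maturation of late endosomes and their fusion with lysosomes, had a 129-nt exon with a Ψ of 0.84 (0.57 to 0.98) in mimetic cells and 0.47 (0.34 to 0.61) in control cells. The Bayes factor of 8.46 was the highest of the tested RAB exons and did not reach 10. A minimum of 5 would call it, as it would 5.59% of all tested exons. The reads were 27 inclusion, 0 skipping and 348 shared in mimetic cells, against 51, 0 and 1326 in control cells. Inclusion reads stood at 52.9 per 100 control reads (exact interval 31.9 to 86.0) and shared reads at 26.2. With 0 skipping reads in both groups the difference rests on that ratio. The upstream intron of this event contains the 219-nt RAB7A exon described below. Reads within that exon, or joining it to the 129-nt exon, therefore match neither isoform, and they enter the intron read density. Inclusion relative to transcripts that hold both exons was not tested. In the 2-isoform model, which called 4.7% of all tested exons, this exon was called (difference 0.37, Bayes factor 12.8), as it was with the density of intron reads taken off (0.41, Bayes factor 16.4; 3.49% of all tested exons). With scaled control reads it was not (0.34, Bayes factor 2.45; 1.7% of all tested exons).

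The upstream RAB7A exon with switch II was scored in a long and a short form that overlap. The 219-nt form had a Ψ of 0.95 in mimetic cells and 0.98 in control cells, and the 78-nt form 0.83 and 0.96. Each form was compared with skipping and not with the other form, so both values can be high. The same holds for the overlapping RAB9A and RAB34 exons below. RAB9A, which returns receptors from late endosomes to the Golgi, had overlapping 168-nt and 89-nt exons in its 5′ UTR. The 168-nt exon stood at 0.82 in mimetic cells and 0.66 in control cells, on 12 and 20 inclusion reads, and the 89-nt exon at 0.85 and 0.73. RAB34, which positions lysosomes and takes part in cilium formation, had overlapping 66-nt and 69-nt exons at 0.85 and 0.80 in mimetic cells, against 0.97 and 0.98 in control cells. RAB29, which recruits the kinase LRRK2, stood at 0.81 and 0.94, and RAB38, of melanosome formation, at 0.93 and 0.97. The upstream intron of the RAB29 event contains a 72-nt RAB29 exon, and reads joining the exons match neither isoform. RAB28, a RAB of cilia and photoreceptors, stood at 0.79 and 0.97 on 10 and 85 inclusion reads.

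Genes with a RAB symbol that are not GTPases gave 6 tested exons in 4 genes, and 0 were called. The 1902-nt exon of RAB11FIP1, an effector that links RAB11 to recycling, had a Ψ of 0.66 (0.45 to 0.90) in mimetic cells and 0.47 (0.36 to 0.62) in control cells, on 65 and 103 inclusion reads. The 2013-nt exon of the related RAB11FIP5 stood at 0.79 and 0.89, a difference of −0.10 that became −0.53, still uncalled, once intron read density was taken off. RAB3GAP2, a subunit of a complex that inactivates RAB3 and activates RAB18, had a 76-nt exon at 0.87 and 0.95. RAB5IF, an endoplasmic reticulum membrane protein, had overlapping 130-nt and 158-nt exons, both at 0.95 in mimetic cells, against 0.97 and 0.96 in control cells. Each was compared with skipping and not with the other, so both values can be high.

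**Figure D4:**
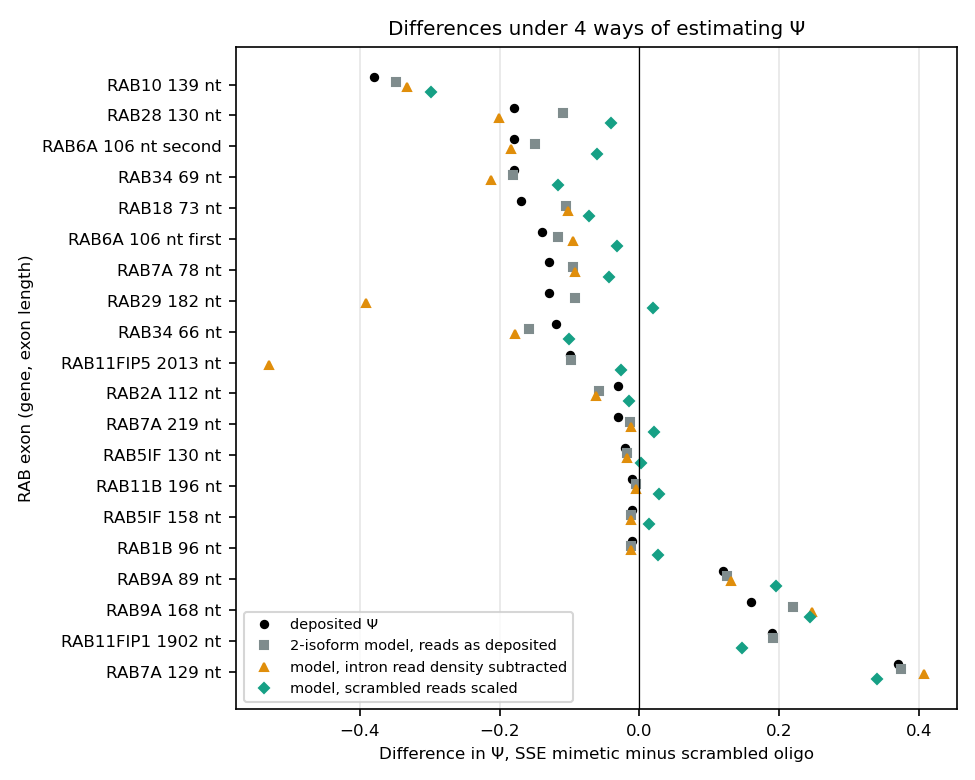
Difference in Ψ (horizontal axis, SSE mimetic minus scrambled oligo) of the named tested RAB exons as deposited (black), in a 2-isoform model of the deposited reads (grey), with intron read density taken off (orange) and with the control reads scaled to the depth of mimetic cells (green). RAB10 139 nt and RAB7A 129 nt keep their sign under all 4, and several exons near 0, such as RAB1B 96 nt, turn from below to above 0 with scaled reads. RAB11FIP1 has no orange point because no isoform-specific reads were left in mimetic cells, unlike the 28 other tested exons.

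Of the motifs searched, the switch II sequence was the most frequent in tested coding RAB exons, though most of them did not hold it whole. A motif split between 2 exons counted as absent. It is part of the fold described above, so its presence in RAB exons follows from the choice of genes. Searched by name on the strand of the gene and in the reading frame, it was present in 10 of 26 tested coding RAB exons, in 8 genes, and in any frame it was found in 11 of 7929 tested exons with a sequence (0.139%), 10 of them RAB exons. The P-loop motif was present in 3 and the guanine-binding motif in 4 of the 26, against 0.908% and 1.61% of the 7929 in any frame. The 10 exons with the whole switch II sequence had a median Ψ of 0.835 in mimetic cells and 0.975 in control cells. The 16 coding exons without the whole sequence stood at 0.845 and 0.965. The 182-nt RAB29 exon, whose first bases resemble the end of the stretch, is among these 16. Skipping reads over the 10 exons numbered 0 in mimetic cells, beside 367 inclusion reads, and 3 in control cells, beside 1723. The overlapping RAB7A forms are both among the 10. They count the same control skipping read and share inclusion reads, so these sums hold repeated reads. Of the 29 tested exons 13 had a length divisible by 3 (44.8%), close to the 41.3% of all tested exons.

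Exons that occur only in transcripts annotated for nonsense-mediated decay, the pathway that destroys mRNAs with a premature stop, had a lower share of inclusion reads than the coding exons in both groups. There were 15 such RAB exons in 11 genes, of which 1 was tested. The 111-nt RAB5IF exon (chr20:36607890-36608000) had a Ψ of 0.10 (0.04 to 0.19) in mimetic cells and 0.10 (0.07 to 0.14) in control cells. It had 5 inclusion and 14 skipping reads in mimetic cells, against 27 and 87 in control cells. Over all 15 exons, 33 of 80 isoform-specific reads supported inclusion in mimetic cells (41.3%, exact interval 30.4 to 52.8%) and 130 of 376 in control cells (34.6%, 29.8 to 39.6%). One of the 15, in the RAB4B-EGLN2 readthrough, is a coding exon of EGLN2, and without it the shares were 38.2% (27.2 to 50.02%) and 27.6% (23.0 to 32.7%). That exclusion was chosen after the values were seen, and the intervals overlap with and without the exon. Over the 65 coding RAB exons the shares were 99.2% and 98.3%.

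**Figure D5:**
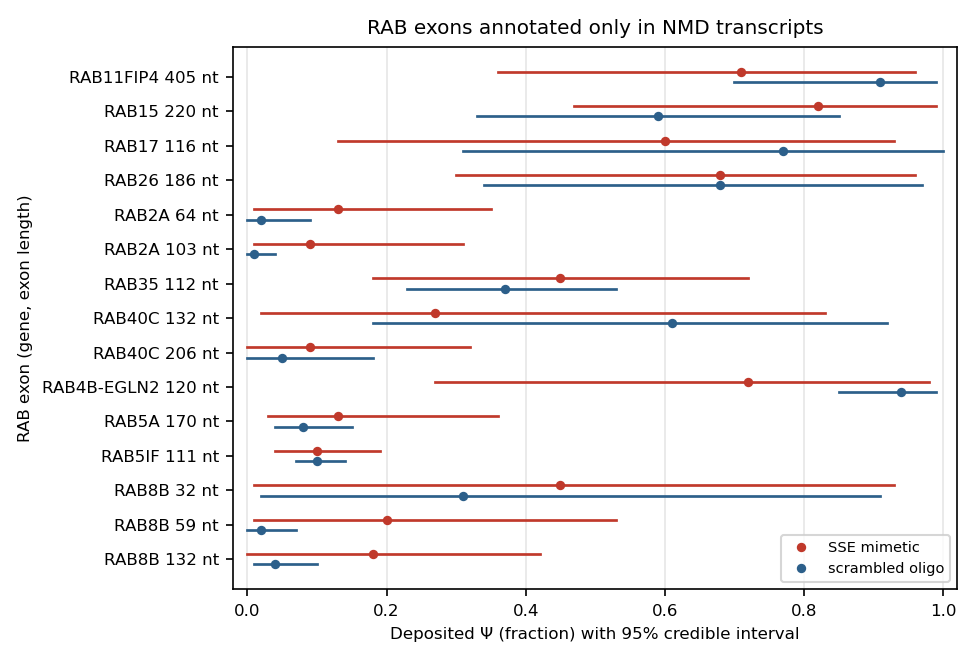
Deposited Ψ (horizontal axis, fraction) with 95% credible intervals of the 15 RAB exons annotated only in nonsense-mediated decay transcripts, in mimetic cells (red) and control cells (blue). RAB5IF 111 nt is at 0.10 in both, and the RAB2A and RAB8B exons lie at or below 0.20 in both except RAB8B 32 nt, whose intervals span most of the axis.

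After RAB5IF, the genes with most skipping reads in this class were RAB2A and RAB8B, a RAB of vesicle delivery to the surface. The 103-nt exon of RAB2A had 0 inclusion reads in both groups and 7 skipping reads in mimetic cells, against 43 in control cells. The 132-nt exon of RAB8B had 1 inclusion read in each group, with 6 and 27 skipping reads. RAB35 stood between, with 4 inclusion and 4 skipping reads for its 112-nt exon in mimetic cells and 16 and 18 in control cells.

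Exons in 5′ UTRs numbered 13 in 7 genes, with 34 inclusion and 2 skipping reads in mimetic cells (94.4% inclusion, exact interval 81.3 to 99.3%) and 97 and 51 in control cells (65.5%, 57.3 to 73.2%). RAB30, a RAB of the Golgi, supplied 0 of the 2 skipping reads in mimetic cells and 33 of the 51 in control cells. The intervals were apart over all 13 exons when every counted read was taken as separate. Without RAB30, a gene set aside after its values were seen, the shares were 93.8% (79.2 to 99.2%) and 80.0% (70.2 to 87.7%), and those intervals overlap. The RAB9A exons among these overlap and share their reads. Among the RAB27A exons, 2 are skipped between the same flanking exons and count the same skipping read, 1 each in mimetic cells. Likewise 2 RAB30 exons count the same 14 skipping reads in control cells. The intervals do not allow for such repeated reads, so they are too narrow to separate the groups.

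The 80 untested RAB exons were short of reads in mimetic cells in every case, 37 of them in that group alone and 43 in both. Of the 80, 17 had no isoform-specific read in mimetic cells. The median Ψ of the untested exons was 0.525 in mimetic cells and 0.59 in control cells, on few reads. One of these exons passed the Bayes factor and the size, which 1.65% of all exons did with no read minimum. The 87-nt exon of RAB18 had a Ψ of 0.55 (0.17 to 0.94) in mimetic cells and 0.03 (0.01 to 0.07) in control cells, with a Bayes factor of 12.27. It rested on 1 inclusion and 0 skipping reads in mimetic cells, against 2 and 42 in control cells, so the direction is carried by a single read.

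The wider RAB machinery was described through a list of 152 regulators and effectors, of which 56 genes had 102 tested exons. Calls comprised 2 exons with higher and 0 with lower Ψ in mimetic cells (1.96%, beside 3.99% of all tested exons), and the median difference was −0.03. No exon had a Fisher's exact p below 0.05 after adjustment, and 4 of 102 did before it. The shares over all tested exons were 1.01% and 5.51%. By class, 40 exons belonged to exchange factors, 16 to GTPase-activating proteins, 37 to effectors and 9 to prenylation and delivery.

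Both called exons had barely more than the minimum of reads in mimetic cells. RABEP1 encodes rabaptin-5, an effector of RAB5 in endosome fusion. Its 186-nt coding exon (chr17:5283884-5284069) had a Ψ of 0.67 (0.39 to 0.88) in mimetic cells and 0.12 (0.06 to 0.19) in control cells, with a Bayes factor of 462.83. It had 10 inclusion and 2 skipping reads in mimetic cells, against 11 and 27 in control cells (adjusted Fisher's exact p = 0.102). RABGAP1 encodes a GTPase-activating protein for RABs. Its 288-nt exon (chr9:122971665-122971952), found only in nonsense-mediated decay transcripts, had a Ψ of 0.53 (0.27 to 0.81) in mimetic cells and 0.14 (0.08 to 0.21) in control cells, with a Bayes factor of 34.75. It had 10 inclusion and 1 skipping reads in mimetic cells, against 16 and 28 in control cells (adjusted Fisher's exact p = 0.10). With intron read density taken off, the RABGAP1 difference was 0.18 with a Bayes factor of 0.214, and with scaled control reads it was 0.37 with a Bayes factor of 4.29, so its call was lost under both. RABEP1 was called in all 3 model settings.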

How the data were processed

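RNA sequencing of 4 samples in 2 groups was summarised by the authors as skipped-exon tables from MISO, per the file headers and layout, with 1 pooled read set per group and 1 comparison. Reads were aligned with STAR 2.7 to hg38, per the submitters' processing notes. The sources used here give neither the MISO version nor its event set, nor how samples were pooled. The deposited Ψ is a fraction with a 95% credible interval, the deposited Bayes factor is a ratio capped at 1e12, and the deposited reads per class (inclusion, skipping, shared, neither) are counts held as text, that is, other units.

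Exons were matched to GENCODE release 29. From the deposited values, exons with 10 or more isoform-specific reads per group were tested across the whole table (8228 exons). Calls needed a Bayes factor of at least 10 and a difference of at least 0.1. Fisher's exact test with Benjamini-Hochberg adjustment over all tested exons was a second reading, and compares the 2 read sets, not the conditions. A 2-isoform likelihood model (read length 76 nt, chosen as the best match to the authors' Ψ, with Pearson correlations across exons of 0.997 in mimetic and 0.999 in control cells) was tested on simulated data and run as alternatives: reads as deposited, intron read density subtracted, and control (scrambled oligo) reads scaled by 0.2114. Other alternatives were the read minimum, the Bayes factor, the size, all events, and the inclusion share.

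Named exons were called RAB exons, the 10 largest differences in each direction, the 10 with most isoform-specific reads, those at 0.1 to 0.9 in control cells with at least 20 reads per group, untested exons passing both criteria, and up to 5 called regulators per direction. Of the exons named by this rule, 1 is not reported here and is not among those plotted by name. The counts, medians and ranges over tested RAB exons include it. Other exons are given for completeness of the members. The members and lists were chosen with earlier results of these data known. Without molecular identifiers reads need not be separate molecules, and intervals cover counting error only. Python 3.11.15, numpy 2.4.6, pandas 2.3.3, scipy 1.17.1 and matplotlib 3.10.9 were used.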

Additional observations from a re-analysis of the deposited data

How the results depend on the processing

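No paired analysis was possible because each group was deposited as 1 pooled read set, and for the same reason no sample could be left out in turn. The main count of called RAB exons was 0. It was 1 with no read minimum (the 87-nt RAB18 exon), 1 with a Bayes factor of at least 5, 1 in the 2-isoform model and 1 after subtraction of the intron read density (each the 129-nt RAB7A exon). It stayed at 0 with minimums of 5 and 20 reads, a Bayes factor of at least 100, a difference of at least 0.2, all events, Fisher's exact test, the inclusion share, scaled control reads and GTPase genes alone. Fisher's exact test and the inclusion share could not call the 16 tested exons with no skipping read in either group. The median RAB difference of −0.06 became 0.00 with the inclusion share, a value those exons fix. It became −0.0067 with scaled control reads, a setting chosen after the data were seen.

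Over all exons 328 were called, against 184 with at least 20 reads, 644 with no minimum, 164 with a Bayes factor of at least 100, 67 with Fisher's exact test, 196 with the inclusion share and 140 with scaled reads. Regulators had 2 of 102 tested exons called. The count was 4 of 175 with at least 5 reads, 0 of 37 with at least 20 and 5 of 456 with no minimum. Over all exons these shares were 3.99%, 3.24%, 4.7% and 1.65%. Of the same 102, 4 were called with a Bayes factor of at least 5, 1 at 100, 0 with Fisher's exact test and 1 with scaled reads. There the shares over all tested exons were 5.59%, 1.99%, 0.814% and 1.7%. Beyond fewer exons or reads entering, the cause was not tested. Values under the other estimates were judged by the distance from the middle to an end of the wider credible interval. Of 86 such values for 22 named RAB exons, 78 stayed within that distance of the deposited difference and 6 moved beyond it. The other 2, both RAB7A, passed the criteria. That distance was wide, as the median interval width of tested RAB exons in mimetic cells was 0.41. A value could change sign and stay within it, as for RAB29 182 nt (−0.13 as deposited, 0.0193 with scaled control reads). The model's read length was also chosen to match the deposited Ψ. The count of 78 therefore does not show that the differences are stable. Leaving out the EGLN2 exon moved the inclusion share of decay-only exons to 38.2% in mimetic cells and 27.6% in control cells, against 41.3% and 34.6% with it. Depth in mimetic cells limits every comparison: 80 of 109 RAB exons lacked the reads to be tested.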

Other observations

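A further 2 RAB events were listed in the scrambled summary alone. RAB15, a RAB of endosomal recycling, had an exon with 8 inclusion reads and a Ψ of 0.77 (0.44 to 0.99) there, and RAB37, a RAB of secretory granules, had one with 2 inclusion reads and a Ψ of 0.61 (0.19 to 0.97). Among untested exons, the lowest difference belonged to the 104-nt exon of RAB27B, a RAB of exosome and granule release, with a Ψ of 0.42 (0.06 to 0.98) in mimetic cells and 0.86 (0.55 to 0.99) in control cells, on 1 and 13 inclusion reads.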
